A study of Mus musculus with 6 samples.

Results

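Endothelial cells line the blood and lymphatic vessels, and in the alveolus their capillaries lie against the epithelium. Transcripts of 10 marker genes of these cells, Pecam1, Cdh5, Kdr, Flt1, Tek, Tie1, Eng, Emcn, Vwf and Egfl7, were examined in RNA of alveolar type II cells, with and without deletion of Stat3 in the respiratory epithelium. The genes were taken as a fixed list, and every probe set annotated to 1 of them alone was used, which gave 18 of the 45037 probe sets tested and 10 of the 18193 genes that a probe set names alone. The Stat3Δ/Δ mice carried SP-C-rtTA, (tetO)7CMV-Cre and both Stat3flx alleles (genotype Stat3flx/flx). The controls were littermates that the labels name SP-C-rtTA/(tetO)7CMV-Cre double transgenics and the methods describe as carrying Stat3flx/flx with 1 of the 2 transgenes. The free description of the control samples names the triple transgenic line instead, and the groups were taken from the titles. Dams of both groups received doxycycline in the food from the start of gestation until after birth, which switches on Cre where the surfactant protein C promoter drives the rtTA activator, in respiratory epithelial cells and not by design in endothelium. Mice were 8 weeks old and sex matched, type II cells were isolated with collagenase and differential plating, cells of 3 mice were pooled, and 6 pools, 3 Stat3Δ/Δ and 3 control, were run on 1 MOE430 array apiece.

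The receptor tyrosine kinases KDR and FLT1 bind vascular endothelial growth factor (VEGF), which alveolar epithelium makes in large amounts and which maintains the capillary bed. TEK binds the angiopoietins and TIE1 is its partner, and endoglin (Eng) assists the receptor ALK1 in binding ligands of the TGF-beta family. PECAM1 and VE-cadherin (Cdh5) join neighbouring endothelial cells, endomucin (Emcn) is a sialomucin of capillaries and veins, von Willebrand factor (Vwf) is stored in endothelial granules for haemostasis, and EGFL7 is secreted into the vessel wall. Some of these transcripts are also found in blood cells: Pecam1 in platelets and leukocytes, Vwf in the megakaryocyte lineage, and Flt1 and Eng in monocytes and macrophages.

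Promoter letters are shown for the 3 members whose RefSeq window (GRCm38.p6) lies clear of every annotated gene. They are given because Stat3, the deleted gene, encodes a factor that binds TTCNNNGAA, and because endothelial genes are widely driven by ETS factors. Each run covers the 250 bases before the annotated start, 5′ to 3′ on the strand of the gene, and the capitals mark ETS cores, searched as AGGAAG and CCGGAA on both strands. Tie1 lies at chr4:118489850-118490099 on the minus strand, Eng at chr2:32646345-32646594 on the plus strand and Egfl7 at chr2:26580833-26581082 on the plus strand.
Tie1: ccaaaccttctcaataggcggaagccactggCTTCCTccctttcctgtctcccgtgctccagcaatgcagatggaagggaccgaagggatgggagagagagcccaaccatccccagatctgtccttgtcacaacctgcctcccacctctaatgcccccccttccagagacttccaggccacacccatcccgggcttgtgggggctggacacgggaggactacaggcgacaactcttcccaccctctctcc
Eng: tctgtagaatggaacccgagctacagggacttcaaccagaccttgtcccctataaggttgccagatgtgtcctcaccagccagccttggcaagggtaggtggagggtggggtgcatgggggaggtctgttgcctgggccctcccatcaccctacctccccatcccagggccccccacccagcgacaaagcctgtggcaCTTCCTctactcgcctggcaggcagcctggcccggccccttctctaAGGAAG
Egfl7: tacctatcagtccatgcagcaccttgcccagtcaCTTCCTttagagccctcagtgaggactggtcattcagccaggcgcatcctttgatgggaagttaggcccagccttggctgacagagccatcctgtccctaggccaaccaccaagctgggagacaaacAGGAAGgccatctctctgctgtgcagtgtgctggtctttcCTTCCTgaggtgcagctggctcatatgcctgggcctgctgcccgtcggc
Windows were held for 7 of the 10 genes, 9 windows in all, since Egfl7 has several. None of the 9 held the letters TTCNNNGAA, which 7.02% of all 32851 windows hold. AGGAAG was in 6 of the 9 windows, those of Tie1, Eng, Emcn and Flt1 and 2 of Egfl7, against 29.5% of all windows, and CCGGAA was in the window of Kdr alone, against 12%. The ETS searches share the letters GGAA but differ in the letter before them, so that no GGAA was counted by both. A match describes letters and not a bound site.

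The deposited values are linear signals, and the median signal ran from 282.8 to 381.3 over the 6 arrays. Log2 fold changes are Stat3Δ/Δ minus control on the scale of log2(signal + 69.9) after quantile normalization. Adding 69.9 makes the fold of a dim gene look smaller than it is. With 6 arrays the precision is limited by their number. Each gene was represented by the brightest of its probe sets. Of 4 probe sets for Stat3, 2 lay lower in every Stat3Δ/Δ pool than in any control pool, with log2 fold changes of -0.80 and -0.71, and the others gave -0.047 and 0.60. The position of these 4 probe sets with respect to the deleted exon was not examined. Genes that define type II cells had high signals on all arrays: Sftpc ran from 94431 to 129372, and no measured gene of the type II list, 9 in number, was below 29374. The titles of Stat3Δ/Δ pools 1 and 2 and of control pool 3 begin with 1 shared number, control pools 1 and 2 share another, and Stat3Δ/Δ pool 3 has its own. No source used here gives the meaning of this number. Where it matters, the difference among those 3 arrays alone is printed too. Log2 ratios of 3′ to 5′ control signal, a measure of RNA integrity, ran lower in Stat3Δ/Δ pools (0.34 to 0.42 for Actb, -0.49 to -0.30 for Gapdh) than in controls (0.47 to 0.81 and -0.24 to 0.27), and their part in the results below was not tested.

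RNA of endothelial genes was present in all 6 isolates, and it was not called different between the groups. By the methods the isolates were mainly type II cells, with alveolar macrophages as the chief contaminant, and their purity did not differ between the groups. At its brightest probe set each of the 10 genes had a signal above the median of all probe sets on 6 of 6 arrays. Of their 18 probe sets 16 did so. The dimmer set of Cdh5 was above the median on no array, and 1 set of Flt1 on 1 array. Detection calls were not used, and the share of all genes above the median was not counted. Of the 10 log2 fold changes 8 lay below 0, where 10796 of all 18193 genes did. Their median was -0.34, against -0.085 for all genes, and they ran from -0.74 for Vwf to 0.12 for Emcn. None of the 10 passed the main thresholds of the methods. These ask for an unadjusted p no higher than 0.05, a false discovery rate (FDR) no higher than 10% and a fold of 1.5 or more. In limma on the deposited signals, not the RMA values of the paper, 0.011% of all genes passed them, and the lowest adjusted p among the 10 was 0.62. The methods waived the FDR for mRNAs that changed in several probe sets. With p and fold but no FDR, 1 gene, Vwf, was lower, where 5.55% of all genes were lower, and none was higher, where 2.15% were. Vwf and Tie1 lay lower in all 3 Stat3Δ/Δ pools than in any control pool, 2 of 10 genes against 10.2% of all genes, and no gene lay higher on all 3, against 4.23%. A share of 1 or 2 genes in 10 is near these backgrounds. The 95% intervals from limma reached 0.58 to 0.83 on either side of each estimate. They contained a log2 fold change of -1 for 8 of the 10 genes and a log2 fold change of 1 for none. In RNA of pooled cells, fewer endothelial cells and less of the transcript in each cell cannot be told apart.

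**Figure D1:**
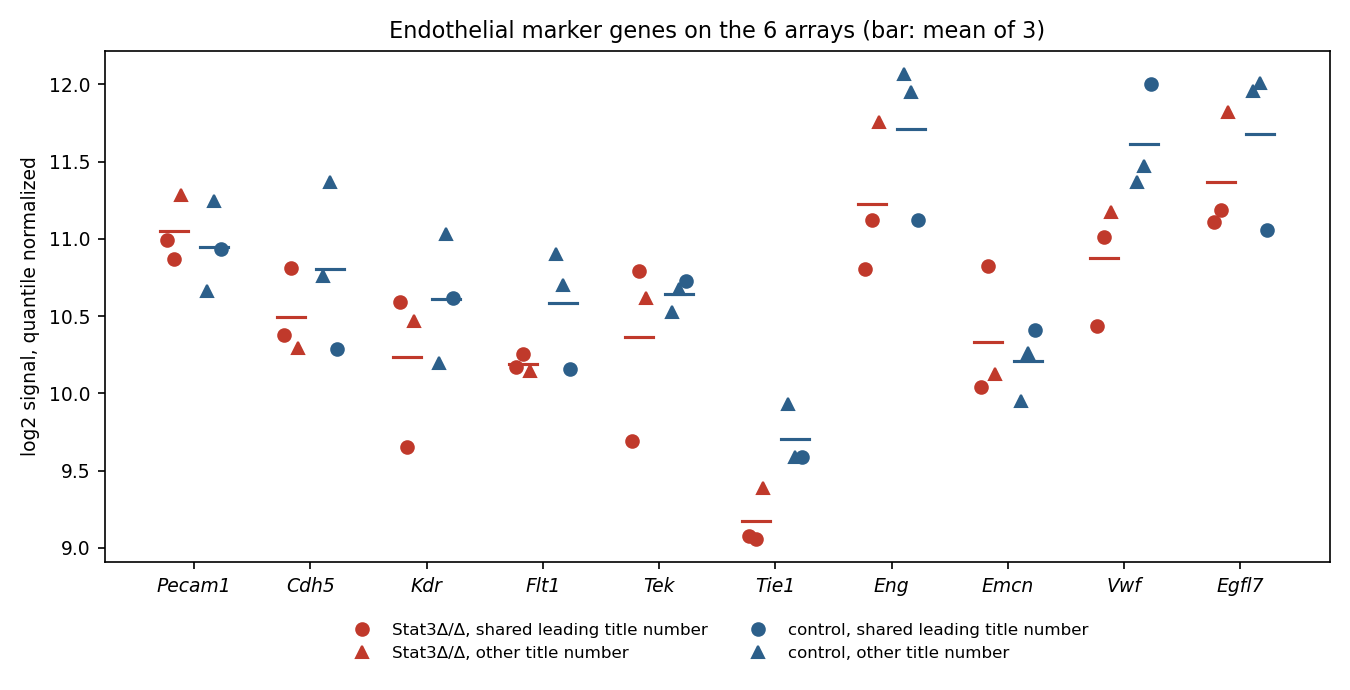
Quantile-normalized log2 signal (vertical axis) of the brightest probe set of each of the 10 genes (horizontal axis) on 3 Stat3Δ/Δ arrays (red) and 3 control arrays (blue), with circles for the 3 arrays whose titles share a leading number, triangles for the others and bars for the mean of 3. The red and blue points separate for Tie1 and Vwf and overlap for the other 8 genes, and for Eng and Egfl7 all circles lie below all triangles.

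Vwf showed the largest difference of the 10. Its signal was 1369, 2026 and 2196 in Stat3Δ/Δ pools 1 to 3 and 2490, 2786 and 4041 in control pools 1 to 3. The highest Stat3Δ/Δ pool was thus below the lowest control pool, and control pool 3 stood above the other two controls. On the log2 scale the Stat3Δ/Δ level was 10.87 ± 0.39 and the control level 11.61 ± 0.34 (both SD, n = 3 pools), a log2 difference of -0.74 (SE 0.31, limma adjusted p = 0.62). Within the 3 arrays of the shared title number it was -1.28, and Stat3Δ/Δ pool 3 minus controls 1 and 2 gave -0.24. Whether Vwf met p and fold without FDR depended on the pools and the test. It did not with all 6 pools by the plain test of the methods or with no pseudocount, nor without Stat3Δ/Δ pool 1 (log2 fold change -0.52), Stat3Δ/Δ pool 2 (-0.81), and likewise when control pool 2 (-0.81) or 3 (-0.55) was left out. Egfl7, the other secreted product, had brightest signals of 2192, 2308 and 3472 in Stat3Δ/Δ pools and 3863, 4055 and 2102 in control pools, a log2 difference of -0.30 (SE 0.35, limma adjusted p = 0.86). Its groups overlapped, since control pool 3 was the lowest of all 6, and among the arrays of the shared title number the difference was 0.091. The 4 probe sets of Egfl7 ran from -0.30 to 0.013, and the brightest carries the _x_at suffix that Affymetrix gives to sets whose probes may match other transcripts.

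The angiopoietin receptor gene Tek and its partner Tie1 lay on the same side of 0, and their arrays differed in order. The signal of Tie1 was 523, 491 and 589 in Stat3Δ/Δ pools 1 to 3 and 810, 681 and 747 in control pools 1 to 3. All 3 Stat3Δ/Δ values were below all 3 control values. The log2 level was 9.18 ± 0.18 against 9.70 ± 0.20 in controls (both SD, n = 3 pools), a log2 difference of -0.53 (SE 0.25, limma adjusted p = 0.680). This difference was -0.52 among the arrays of the shared title number and -0.37 for Stat3Δ/Δ pool 3 minus controls 1 and 2, and it stayed between -0.64 and -0.41 with any 1 pool left out. Without Stat3Δ/Δ pool 3 Tie1 also met p and fold without FDR, at -0.64. The signal of Tek was 814, 1729 and 1464 in Stat3Δ/Δ pools and 1294, 1573 and 1684 in control pools. Stat3Δ/Δ pool 1 was low and pool 2 was the highest of all 6, so that the log2 fold change of -0.28 (SE 0.33, limma adjusted p = 0.866) turned to 0.061 without Stat3Δ/Δ pool 1. Of the genes that act with these receptors, Angpt1 and Angpt2, which encode angiopoietins, gave 0.053 and 0.35, Angpt4 gave -0.25, and Ptprb, a phosphatase that restrains TEK in endothelium, gave -0.076. None of these 4 passed p and fold without FDR, and Angpt1 was dim, at 16.1 to 130.4.

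For the VEGF receptors the values of the groups overlapped. Kdr, the main signaling receptor, had signals of 1528, 767 and 1315 in Stat3Δ/Δ pools 1 to 3 and 1000, 2036 and 1560 in control pools 1 to 3. The log2 fold change was -0.37 (SE 0.35, limma adjusted p = 0.827), with the lowest value in Stat3Δ/Δ pool 2 and the next lowest in control pool 1. Flt1, which binds VEGF tightly and signals weakly, had brightest signals of 1135, 1182 and 1048 in Stat3Δ/Δ pools and 1745, 1605 and 1122 in control pools, a log2 difference of -0.40 (SE 0.28, limma adjusted p = 0.771). Control pool 3 lay among the Stat3Δ/Δ pools, and among the 3 arrays of 1 title number the difference was 0.057. The other three probe sets of Flt1 gave -0.57, 0.081 and -0.61. The first of these had 626, 456 and 428 in Stat3Δ/Δ pools and 678, 618 and 858 in control pools. These signals overlapped, and the groups separated only after normalization. Of the ligands, Vegfa, the principal one in lung, gave -0.070 (SE 0.29) and 0.51 at its other probe set, with brightest signals of 6559, 3768 and 3951 in Stat3Δ/Δ pools and 5000, 4880 and 4657 in control pools. Vegfb gave -0.50, Vegfc -0.19 and Pgf, placenta growth factor, -0.068. Vegfd, a ligand with lymphatic activity, was lower at p and fold without FDR. It was the 1 such gene of the 8 in this list, where 5.55% of all genes were lower. None of the 8 was higher, where 2.15% of all genes were. Vegfd was at 206, 152 and 192 in Stat3Δ/Δ pools and 247, 285 and 300 in control pools (log2 fold change -0.59, adjusted p = 0.602 from limma). These signals were dim, below the median of the array on every array. Its 3 probe sets ran from -0.59 to 0.22. The lymphatic receptor Flt4 gave -0.33, and the coreceptors Nrp1 and Nrp2, which epithelium and other cells also express, gave 0.18 and 0.24. The median of the list was -0.13, and it was 0.039 among the arrays of the shared title number.

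At the brightest probe set of endoglin the arrays split by the leading title number, and the Stat3Δ/Δ and control values overlapped. Eng had brightest signals of 1778, 2203 and 3332 in Stat3Δ/Δ pools 1 to 3 and 4220, 3882 and 2203 in control pools 1 to 3. The 3 arrays that share a title number held the 3 lowest values. The log2 fold change was -0.49 (SE 0.36, limma adjusted p = 0.783), it was -0.16 within the shared number, and the other probe set of Eng gave 0.023. At that other set the arrays of the shared number (760, 1146 and 862) overlapped the rest (1534, 1076 and 1237). The title number is in part confounded with the genotype, and the part of either in these values was not tested. Eng and Egfl7 were the members for which the 3 arrays with the shared number all lay below the other 3, 2 of 10 genes against 14.2% of all genes, and no member showed the reverse, against 7.95%. Of the partners of endoglin, Acvrl1, which encodes ALK1, gave -0.16, the type II receptor Bmpr2 0.10 with probe sets from 0.10 to 0.66, the inhibitory Smad6 -0.035, and the ligands Gdf2 and Bmp10 -0.035 and 0.17. None of these 5 met p and fold without FDR.

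The junction genes and endomucin had no common direction. Pecam1 had signals of 2027, 1836 and 2374 in Stat3Δ/Δ pools 1 to 3 and 1444, 2370 and 1931 in control pools 1 to 3, a log2 difference of 0.10 (SE 0.27, limma adjusted p = 0.955), with the lowest value in control pool 1. Its sign turned with arrays centred on their medians (-0.0072) and with array weights (-0.037). Cdh5 had brightest signals of 1318, 1760 and 1159 in Stat3Δ/Δ pools and 1558, 2585 and 1235 in control pools, a log2 difference of -0.31 (SE 0.33, limma adjusted p = 0.852). Control pool 2 stood apart as the highest, within the shared title number the difference was 0.31, and the dimmer probe set of Cdh5 gave 0.23. Emcn had signals of 1039, 1777 and 1033 in Stat3Δ/Δ pools and 824, 1159 and 1348 in control pools, a log2 difference of 0.12 (SE 0.30, limma adjusted p = 0.949). Stat3Δ/Δ pool 2 was the highest and control pool 1 the lowest, and without Stat3Δ/Δ pool 2 the value was -0.12.

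**Figure D2:**
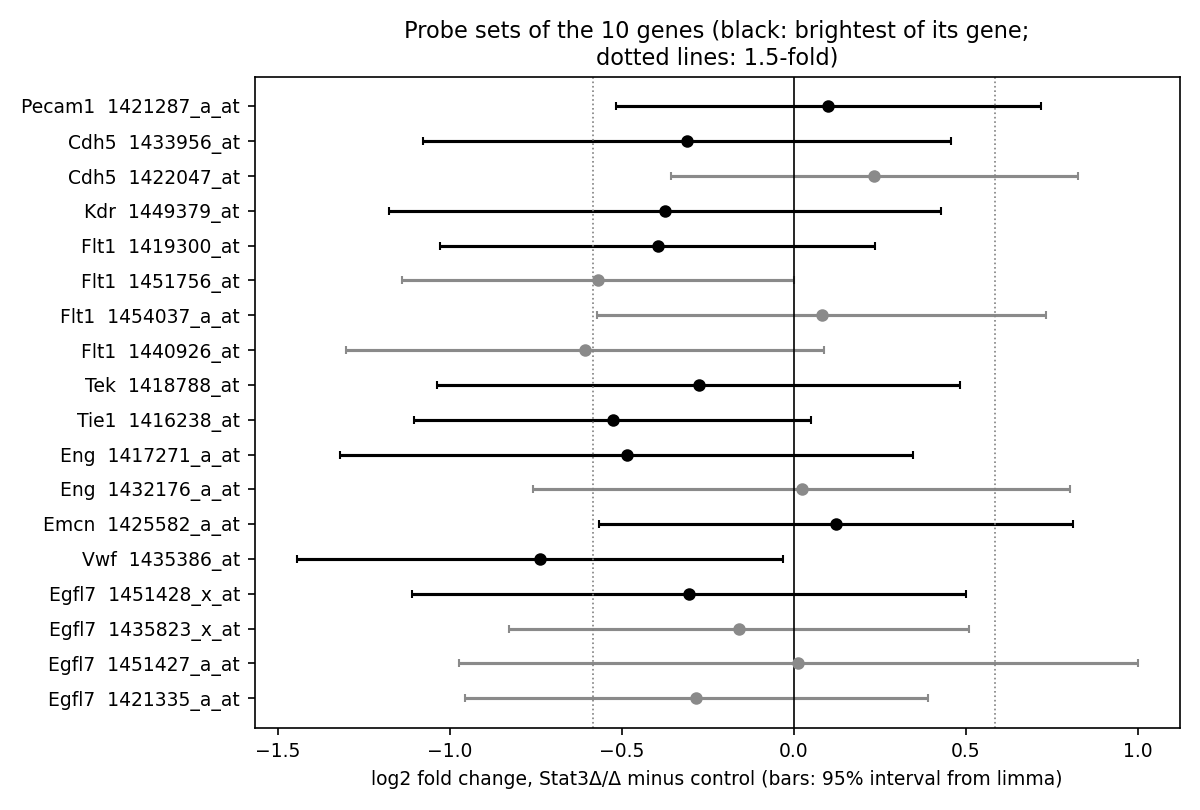
Log2 fold change of Stat3Δ/Δ minus control (horizontal axis) for the 18 probe sets of the 10 genes (vertical axis), with 95% intervals from limma as bars, black for the brightest probe set of a gene, grey for the others, and dotted lines at a fold of 1.5. The interval of Vwf alone lies wholly below 0, and the points of Cdh5, Flt1, Eng and Egfl7 fall on both sides of it.

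Several probe sets were available for 4 of the genes, Cdh5, Flt1, Eng and Egfl7, and in all 4 they had opposite signs. Over the 18 probe sets 12 lay below 0 and 6 above, and 1 was lower at p and fold without FDR, where 4.22% of all probe sets were. For 3 probe sets, of Vwf, Tie1 and Flt1, the normalized values of the groups did not overlap and Stat3Δ/Δ cells were lower, where 7.66% of all probe sets were so. For the Flt1 set the deposited signals did overlap.

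Other genes of endothelium, 46 measured of a list of 47, had a median log2 fold change of -0.20, with 31 below 0, where 10796 of all 18193 genes were. Of these, Cldn5, the claudin of endothelial tight junctions, gave -0.26, Esam, an adhesion molecule, -0.10, and Icam2, a leukocyte ligand, -0.29. The median of the list was -0.093 among the arrays of the shared title number, against -0.048 for all genes. It was -0.14 for Stat3Δ/Δ pool 3 minus controls 1 and 2. For 10 of the 46 genes the 3 arrays with the shared number all lay below the other 3, against 14.2% of all genes. For 3 genes they all lay above, against 7.95%. At p and fold without FDR 4 of the 46 were lower, against 5.55% of all genes, and 2 higher, against 2.15%. After normalization 8 lay lower without overlap, against 10.2% of all genes, and 2 higher, against 4.23%. The 6 that met p and fold are named here after their values were seen, and none passed the FDR. Plvap, which forms the diaphragms of fenestrae and caveolae, was 2528, 3055 and 4060 in Stat3Δ/Δ pools and 5256, 6275 and 5316 in control pools (log2 fold change -0.82, adjusted p = 0.541 from limma). Cd34, a sialomucin also found on stromal and progenitor cells, gave -0.83, Palmd -0.74 and Mmrn1 -0.59, with -0.10 at the other probe set of Mmrn1. Car4, a carbonic anhydrase on the surface of pulmonary capillaries, lay on the other side, at 11828, 21819 and 19139 in Stat3Δ/Δ pools and 10118, 10244 and 9284 in control pools (log2 fold change 0.82, adjusted p = 0.561 from limma). S1pr1, a sphingosine 1-phosphate receptor of endothelium and lymphocytes, gave 0.70. The genes that met p and fold without FDR thus lay on both sides of 0. Of 13 transcription factors of endothelium, 6 lay below 0 and 7 above, with a median of 0.0048, which was -0.29 among the arrays of the shared title number. Erg, the ETS factor most used as an endothelial marker, gave 0.43, Fli1, another ETS factor shared with blood cells, 0.70, and Sox17 0.0048. Their other probe sets gave -0.22 for Erg, 0.26 for Fli1 and 0.50 for Sox17. At p and fold without FDR the flow-induced factor Klf2 (-0.81) and Tal1 (-0.87) were lower, 2 of 13 genes against 5.55% of all genes, and Hhex (0.60) was higher, 1 of 13 against 2.15%. These were also named after their values were seen.

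Several lists of markers of other cells differed by more than the endothelial genes, or in the other direction, and none of their genes passed the FDR. The summed signal of the 10 endothelial genes was 13721 to 17983 in Stat3Δ/Δ pools and 17974 to 22732 in control pools. Of 6 mesothelial genes all lay below 0, with a median log2 fold change of -1.22, with Upk3b at -1.96, Msln at -0.91 and Wt1 at -0.35, and their summed signal was 3715 to 6493 against 11244 to 14157. Of 10 fibroblast genes 7 lay below 0, with a median of -0.85, with the collagen genes Col1a1 at -2.33 and Col1a2 at -1.75, and their summed signal was 6036 to 14551 against 16955 to 33924. The fibroblast median turned to 0.20 among the arrays of the shared title number and was -1.48 for Stat3Δ/Δ pool 3 minus controls 1 and 2. Among the arrays of the shared number Col1a1 gave -1.11, Col1a2 -1.04 and Pdgfra 0.80. The probe sets of Col1a2 ran from -1.75 to 0.089. The 11 genes of pericytes and smooth muscle, which wrap the vessels, had a median of -0.061, with 6 below 0, Pdgfrb at -0.084, Cspg4 at 0.45 and Rgs5 at 0.044 (its 4 probe sets ran from -1.04 to 0.044), and sums of 6119 to 9250 against 6503 to 10859. Their median was 0.18 among the arrays of the shared title number. Platelet genes, 10 measured of 12, had a median of 0.44, with 7 above 0, Pf4 at 0.62, Ppbp at 0.31 and Itga2b at -0.42, and sums of 7230 to 10278 against 4749 to 7354. The platelet median was 0.69 among the arrays of the shared title number and 0.068 for Stat3Δ/Δ pool 3 minus controls 1 and 2. Of red cell genes, 3 measured of 5, 2 lay below 0, with sums of 3519 to 21912 against 13249 to 34591. All 10 macrophage genes lay above 0, among them Marco at 0.75 and Mrc1 at 0.62, with a median of 0.50 and sums of 139477 to 208457 against 116081 to 124794. Neutrophil genes, 6 measured of 8, had a median of 0.76, which was 0.13 among the arrays of the shared title number and 1.32 for Stat3Δ/Δ pool 3 minus controls 1 and 2. The medians of the other lists were, for lymphocyte genes, 8 of 10, 0.17, for ciliated cell genes, 6 of 6, -1.04, for airway secretory genes, 4 of 4, -0.18 and for type I cell genes, 6 of 6, 0.091. The type II list had a median of -0.012. Other lists kept their side of 0 among the arrays of the shared title number. There the median was -1.19 for mesothelial, 0.47 for macrophage and -0.69 for ciliated cell genes. For Stat3Δ/Δ pool 3 minus controls 1 and 2 these medians were -1.23, 0.39 and -1.01. The lowest signal on any array was 179.1 in the mesothelial list, 280.7 in the macrophage list and 490.5 among the 10 endothelial genes. The part of any of these cells in the values of the 10 genes was not tested.

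**Figure D3:**
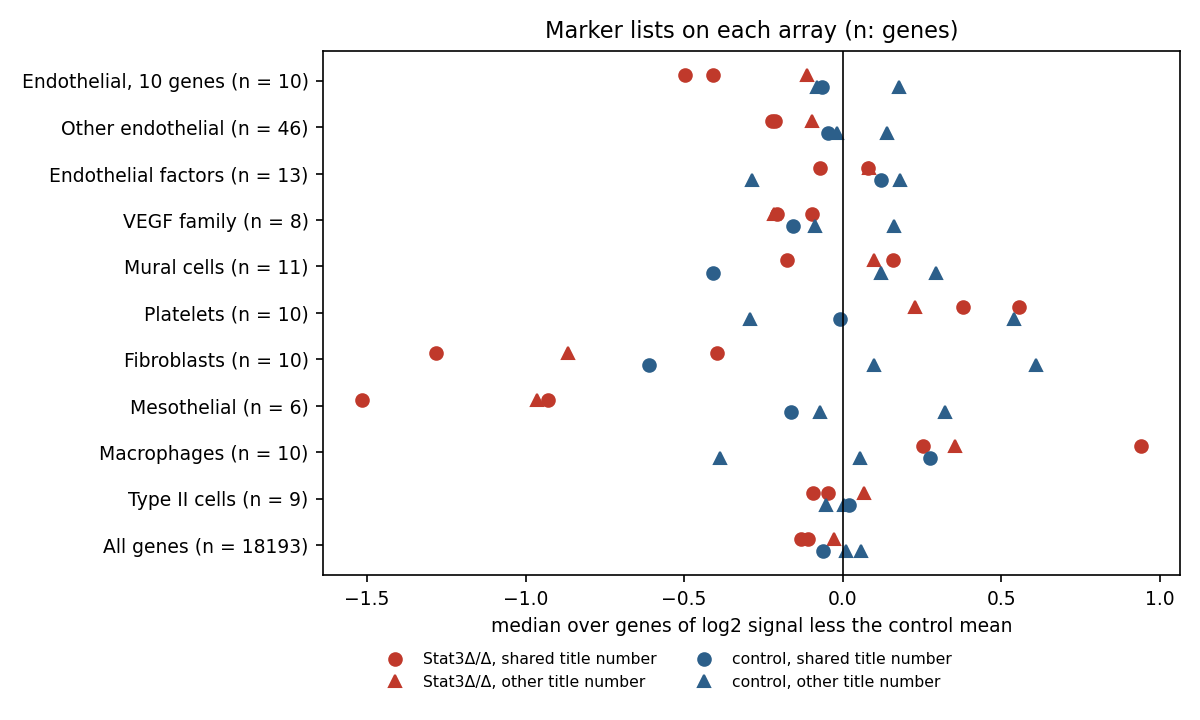
Median over the genes of each list (vertical axis) of the log2 signal less the mean of the 3 control arrays (horizontal axis), 1 point for each array, red for Stat3Δ/Δ and blue for control, with circles for the shared leading title number. The median of the 10 endothelial genes lies between -0.50 and 0.18 on all arrays, while the Stat3Δ/Δ points of the mesothelial list lie between -1.52 and -0.93.

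Over the arrays, the medians of the 10 genes relative to the control mean were -0.50, -0.41 and -0.11 in Stat3Δ/Δ pools 1 to 3 and -0.080, 0.18 and -0.065 in control pools 1 to 3. Stat3Δ/Δ pools 1 and 2 were the lowest, and pool 3 was close to control pools 1 and 3. For all genes the medians were -0.13, -0.11 and -0.026 in Stat3Δ/Δ pools 1 to 3 and 0.057, 0.0090 and -0.061 in control pools 1 to 3, so that Stat3Δ/Δ pools 1 and 2 were the lowest there too. After normalization the lowest array was Stat3Δ/Δ pool 1 for 3 genes (Tek, Eng and Vwf), pool 2 for 2 (Kdr and Tie1), pool 3 for 1 (Flt1), control pool 1 for 2 (Pecam1 and Emcn) and control pool 3 for 2 (Cdh5 and Egfl7). No pool was thus the lowest for most of the genes. Within the 3 arrays of the shared title number the median of the 10 log2 fold changes was -0.082, against -0.048 for all genes, and it was -0.21 for Stat3Δ/Δ pool 3 minus controls 1 and 2.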

How the data were processed

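RNA of alveolar type II cells, 3 pools of 3 mice in each group, was hybridized to 1 MOE430 array a pool. The deposited values are linear signal intensities that the authors made with Microarray Suite 5.0 (MAS5), with a 2% trimmed mean of 1500 on each array; the RMA values used for the published tests were not used here. Titles gave the groups. The members and gene lists were chosen with earlier results of these data known.

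After 64 control probe sets were set aside, 45037 were tested. To each signal 69.9, the 20th percentile, was added, log2 was taken, and arrays were quantile normalized. limma 3.58.1 (R 4.3.3) was fitted to all probe sets with empirical Bayes moderation and Benjamini-Hochberg adjustment, over all probe sets or over 18193 genes (the brightest probe set of each). The platform annotation names 1 gene for 34945 probe sets, several for 932 and none for 9160. Genes eligible to be named were all members, Stat3, all genes of the VEGF, angiopoietin and ALK1 lists, the first 3 measured genes of every other list and any listed gene called with FDR; others are marked. The script was tested on simulated data. Pools are separate groups of mice. Alternatives changed the pseudocount, normalization, low-signal filter, variance model, array weights, test, blocks, probe set choice, fold threshold and arrays. Python 3.11.15, pandas 2.3.3 and numpy 2.4.6 made the tables, and matplotlib 3.10.9 the plots.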

Additional observations from a re-analysis of the deposited data

How the results depend on the processing

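No member was called with the FDR under any of the 18 alternatives that gave a test, limma and the methods' t-test included, while 1 had an unadjusted p of at most 0.05 in limma. The median of the 10 log2 fold changes, -0.34, stayed below 0 under all 19 alternatives that gave a value. It was -0.082 with a fixed block for the title number or within the arrays that share it, and -0.56 to -0.21 with 1 array left out. The median of all genes was also below 0 under every alternative for which it was computed, from -0.18 to -0.039. The count of members lower at p and fold without FDR, 1, was 0 with no pseudocount, 0 with the methods' t-test and 0 at a fold of at least 2, and ran from 0 to 2 with 1 array left out. The replicate block gave 1 such member, a median of -0.34 and changed no call. Arrays of the same number shared no deviations (correlations of -0.084, -0.0088 and -0.24), and no array correlated best with its own number. Kdr, Tie1, Eng and Vwf kept their sign throughout. Centring arrays on their medians turned Pecam1 to -0.0072, and it was -0.037 with array weights and -0.0043 with a fixed block for the title number or within it, and ran from -0.041 to 0.25 with 1 array left out. The fixed block and the arrays within it, which give 1 and the same estimate, turned Cdh5 to 0.31, Flt1 to 0.057 and Egfl7 to 0.091. A random block for the title number turned no sign, with Cdh5 at -0.23, Flt1 at -0.33, Egfl7 at -0.22 and a median of -0.31. With 1 array left out Tek ran from -0.49 to 0.061 and Emcn from -0.12 to 0.27. The causes were not tested. Averaging the probe sets of a gene gave values with no test. With arrays centred on their medians the median of all genes was -0.18, against -0.085, and that of the members -0.45.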
